A study of Mus musculus with 12 samples.

Results

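The genes described here are the Wnt ligands, their receptors and the proteins that restrain them. They are the protein-coding genes of the deposited table whose symbol begins with Sfrp, or with Wnt, Fzd or Dkk and a digit, together with Lgr4, Lgr5, Lrp5, Lrp6, Axin2, Rnf43 and Znrf3. This rule found 34 of the 20819 genes in the table, of which 15422 are protein coding. By symbol they divide into 12 ligands, 10 Frizzled receptors, 4 coreceptors or R-spondin receptors, 3 feedback genes and 5 secreted antagonists. The samples were tubuloids, clusters of tubular epithelial cells grown in Matrigel from the kidney cortex of wildtype mice, 4 animals in all. RNA was taken after 12 h in vehicle, in myoglobin, or in myoglobin plus dexamethasone at 100 nM, and each treatment has 4 messenger RNA libraries. Myoglobin is the haem protein of muscle that reaches the kidney when muscle breaks down, and dexamethasone is a synthetic glucocorticoid. No group had dexamethasone without myoglobin, and the labels number the libraries within a treatment without tying a number to a mouse, so the p-values measure only the spread between these samples.

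Wnt proteins are secreted, lipid-modified signals that bind a Frizzled receptor on the surface of a nearby cell. In the canonical branch, Frizzled acts with the coreceptors Lrp5 and Lrp6, beta-catenin escapes degradation, and it switches on target genes with TCF and LEF factors. Other branches run through Frizzled and Ror or Ptk7 receptors and organise cell polarity and movement. In the kidney, Wnt9b and Wnt4 are known for the induction of nephrons, Wnt11 for branching of the ureteric bud, and Wnt7b for the collecting duct and medulla.

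The values are normalised read counts, that is, reads per gene divided by a scaling factor of the library and rounded. The estimate of reads was 5.51 to 5.87 M in vehicle libraries, 5.28 to 5.92 M in those with myoglobin and 3.25 to 5.53 M in those with both agents. The lowest belongs to replicate 4 of myoglobin with dexamethasone, which also has 2179 genes listed at 0 against 1051 to 1544 in the other libraries. The treatment labels were checked with 3 genes. Hmox1, the haem oxygenase, was at 106 to 124 with vehicle, 446 to 475 with myoglobin and 453 to 540 with both agents. Fkbp5, a glucocorticoid target, was at 202 to 251, 230 to 265 and 493 to 595 in the same order, and Tsc22d3, another one, at 179 to 231, 251 to 279 and 354 to 369. Tubular epithelial markers were high (Epcam 930 to 1488 over the 12 libraries). The 9 of them summed to 10380 to 10561 with vehicle, 9506 to 10125 with myoglobin and 10150 to 13781 with both agents. Both the 1488 of Epcam and the sum of 13781 belong to replicate 4 of both agents. The 9 proximal tubule markers were mixed. Of these, 4 never passed 10 (Cubn 0 to 5, Slc34a1 0 to 3, Slc5a2 1 to 7, Kap 0 to 2), while Lrp2 was at 216 to 456 and Napsa at 179 to 313. Of 8 endothelial markers, 7 never passed 10 (Pecam1 0 to 6), and Flt1 was at 23 to 52. Of 13 fibroblast and stromal markers, 4 never passed 10 (Col1a1 1 to 4), while Rgs5 was at 93 to 305, Acta2 at 26 to 57 and Col3a1 at 10 to 51. The 9 immune markers summed to 765 to 900 with vehicle, 851 to 983 with myoglobin and 886 to 1018 with both agents. Of these markers, 3 never passed 10, and the 2 largest went opposite ways with myoglobin. Cd74 was at 164 to 212, 373 to 402 and 360 to 394 in the same order. Ptprc was at 401 to 484, 320 to 377 and 408 to 444.

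All 34 genes passed the filter for testing, 10 or more in 4 or more libraries. Levels of different genes were compared per kilobase of exon. In vehicle tubuloids the highest of these levels was that of Fzd10, at 195 ± 23.0 per kb (SD, n = 4), followed by the coreceptors Lrp5 at 164 and Lrp6 at 160 per kb. Axin2, a scaffold of the beta-catenin destruction complex and a common target of the canonical branch, came next with 153 per kb. Among the ligands Wnt4 was highest with 114 per kb, then Wnt5a with 99.2, Wnt7b with 72.8, Wnt5b with 62.1 and Wnt9b with 56.7 per kb. The lowest level of all was that of the ligand Wnt10b, 2.50 per kb. Most neighbours in this order overlapped between libraries. Of the 33 steps, only 6 separated their libraries fully: Wnt5a above Sfrp1, Sfrp1 above Fzd8, Lgr5 above Fzd3, Fzd3 above Wnt11, Wnt11 above Wnt10a, and Fzd9 above Wnt6.

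**Figure D1:**
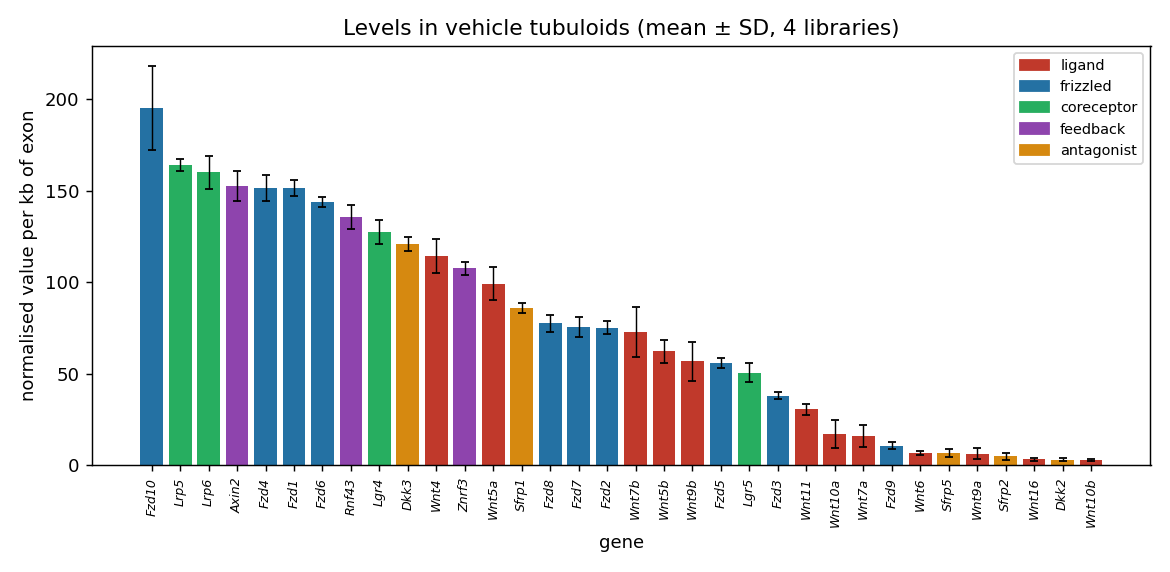
Level of each of the 34 genes in vehicle tubuloids, as the normalised value per kb of exon on the y axis; bars are means, error bars SD over 4 libraries, and colours show the role of the gene. Fzd10 stands at the left with 195 per kb and Wnt10b at the right with 2.50 per kb.

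The first comparison asks what myoglobin changed. Ligands and Frizzled receptors moved in both directions, antagonists only fell, and no coreceptor or feedback gene passed. Wnt10b, Wnt4 and Fzd10 rose, and Wnt11, Wnt9b, Wnt5a, Fzd8, Dkk3 and Sfrp1 fell (limma, Benjamini-Hochberg adjusted p below 0.05 over all genes tested). Of all 14558 genes tested, 18.3% passed in either direction, 8.71% as higher and 9.62% as lower. Among the 34 genes, 3 (8.82%) were higher and 6 (17.6%) lower, 26.5% in all. The median change of the 34 genes was -0.12 on the log2 scale, and that of all genes tested 0.00.

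The promoters of the 3 called ligands with the largest changes, 1 that rose and 2 that fell, are shown because they head this comparison. Each is the stretch of 250 bases before the start site on the gene's own strand, 5′ to 3′ (RefSeq, GRCm38.p6). Wnt10b lies at chr15:98778151-98778400 on the minus strand, Wnt11 at chr7:98834862-98835111 on the plus strand, and Wnt9b at chr11:103749822-103750071 on the minus strand. Capitals mark motif matches, kappaB in Wnt10b and TCF/LEF (CTTTGAT, here on the reverse strand) in Wnt11.
Wnt10b: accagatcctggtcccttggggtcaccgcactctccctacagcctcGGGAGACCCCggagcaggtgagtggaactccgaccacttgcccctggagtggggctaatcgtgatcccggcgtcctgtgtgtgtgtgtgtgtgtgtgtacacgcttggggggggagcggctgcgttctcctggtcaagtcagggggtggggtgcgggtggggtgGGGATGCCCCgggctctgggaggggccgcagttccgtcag
Wnt11: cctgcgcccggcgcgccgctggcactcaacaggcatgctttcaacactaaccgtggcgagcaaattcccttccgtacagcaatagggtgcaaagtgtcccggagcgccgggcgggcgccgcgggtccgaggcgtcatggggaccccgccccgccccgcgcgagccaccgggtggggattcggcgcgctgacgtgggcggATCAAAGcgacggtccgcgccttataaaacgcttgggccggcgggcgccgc
Wnt9b: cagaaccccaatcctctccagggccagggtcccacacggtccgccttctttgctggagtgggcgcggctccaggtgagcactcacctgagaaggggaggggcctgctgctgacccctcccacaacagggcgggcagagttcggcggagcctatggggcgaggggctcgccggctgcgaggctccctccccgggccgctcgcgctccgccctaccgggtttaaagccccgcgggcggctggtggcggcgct
All of them are rich in G and C, with 66.8%, 70.8% and 72.0% against a median of 52.4% over the 32851 promoters of the RefSeq table. CpG pairs number 14, 37 and 22, against a median of 6. The Wnt10b window has 2 kappaB matches that do not overlap, at positions -204 to -195 and -40 to -31 from the start, and such a match is found in 3.9% of all promoters. In Wnt11 the TCF/LEF match is at -51 to -45, and 3.21% of all promoters have one. The table has a promoter for 21 of the 34 genes. Over these 21, searched on both strands, TCF/LEF was found in 2 (Wnt11 and Wnt5b), AP-1 (TGANTCA, 6.75% of all promoters) in 1 (Wnt5b), kappaB in 1 and the glucocorticoid response element (0.167% of all) in 0. A match is a description of the letters and no evidence of binding.

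Wnt10b, a canonical ligand (ENSMUSG00000022996, mm10 chromosome 15, 98770712 to 98778150, minus strand), had the largest rise of the 34 genes. In library order 1 to 4, which is used throughout, its normalised read count was 11, 7, 9 and 7 with vehicle, 45, 29, 29 and 23 with myoglobin, and 38, 32, 31 and 19 with both agents. Every myoglobin library lay above every vehicle library. The change was 1.75 ± 0.25 on the log2(value + 1) scale (SE, adjusted p = 0.000126). At such low values the size depends on the pseudocount, and it was 1.15 with a pseudocount of 10. Only 1 vehicle library of Wnt10b reached the filter's minimum of 10, so the gene entered the test through the treated groups.

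Wnt4 (ENSMUSG00000036856, chromosome 4, 137277489 to 137299726, plus strand), the most abundant ligand per kb, also rose. It read 437, 471, 530 and 479 with vehicle, 597, 591, 583 and 583 with myoglobin, and 663, 633, 644 and 744 with both agents. The 4 myoglobin libraries lay within a narrow range, above all vehicle libraries, and those with both agents were higher again. Myoglobin against vehicle gave 0.30 ± 0.058 (adjusted p = 0.00179).

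Wnt11 (ENSMUSG00000015957, chromosome 7, 98835112 to 98855195, plus strand), a ligand known mostly for non-canonical signalling, had the largest fall. Values of 127, 121, 114 and 141 with vehicle stood against 49, 50, 45 and 38 with myoglobin, and against 37, 38, 52 and 42 with both agents. The groups with myoglobin were far below vehicle and overlapped each other. With myoglobin Wnt11 fell by 1.45 ± 0.13 on the log2 scale (adjusted p = 1.34e-06).

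Wnt9b (ENSMUSG00000018486, chromosome 11, 103727364 to 103749821, minus strand), a canonical ligand of the ureteric bud and collecting duct lineage, was at 309, 277, 240 and 199 with vehicle. With myoglobin it read 180, 143, 170 and 126, and with both agents 182, 139, 177 and 144. No treated library reached the lowest vehicle library. The change was -0.72 ± 0.14 (adjusted p = 0.00165). Wnt5a (ENSMUSG00000021994, chromosome 14, 28504750 to 28527448, plus strand), the main ligand of the polarity branch, read 884, 736, 748 and 737, then 655, 652, 639 and 606 with myoglobin, and 743, 613, 683 and 624 with both agents. Vehicle replicate 1 stood above the rest of its group, and the myoglobin libraries were below all vehicle libraries. Wnt5a fell by 0.28 ± 0.067 with myoglobin (adjusted p = 0.00788), and it also passed without that vehicle library.

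The other 7 ligands did not pass. Wnt7b, at 267 to 429 with vehicle and 268 to 438 with myoglobin, differed by 0.05 ± 0.18. Wnt5b was at 143 to 184 and 124 to 172, and it overlaps Fbxl14 on the opposite strand (443 to 487 with vehicle). The library kit keeps the strand, but whether the counting used it is not given in the sources used here, so the Wnt5b value is uncertain. Wnt7a (29 to 76 with vehicle, 15 to 59 with myoglobin), Wnt10a (15 to 59 and 12 to 42) and Wnt9a (9 to 34 and 8 to 19) spread widely within each group, and the groups overlapped. Wnt6 (12 to 17 and 8 to 13) and Wnt16 (9 to 17 and 2 to 15) were low throughout. Wnt6 and Wnt10a are neighbours on chromosome 1, 6193 bases apart on the same strand.

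Among the 10 Frizzled receptors, 1 rose and 1 fell with myoglobin (20% called, near the 18.3% of all genes tested). Fzd10 (ENSMUSG00000081683, chromosome 5, 128600844 to 128604093, plus strand) had 705, 637, 665 and 530 with vehicle, 903, 784, 833 and 704 with myoglobin, and 833, 736, 776 and 813 with both agents. The lowest myoglobin library and the highest vehicle library were level, and the others were apart. Its rise was 0.35 ± 0.083 (adjusted p = 0.00794). Fzd8 (ENSMUSG00000036904) went the other way, with 477, 489, 461 and 424 in vehicle, 408, 380, 352 and 335 with myoglobin, and 344, 332, 338 and 294 with both agents. All treated libraries were below all vehicle libraries, and the change with myoglobin was -0.33 ± 0.068 (adjusted p = 0.00277). Fzd9, at 20 to 30 and 12 to 21, missed the threshold with -0.68 ± 0.23 (adjusted p = 0.0525), and it passed in 9 of the 23 alternatives. The other 7 receptors (Fzd1, Fzd2, Fzd3, Fzd4, Fzd5, Fzd6 and Fzd7) had overlapping libraries and did not pass.

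Of the 5 genes grouped by symbol as secreted antagonists, the 2 abundant ones fell (40% called, against 18.3% of all genes tested). Whether Dkk3 restrains Wnt signals in these cells was not tested. Dkk3 (ENSMUSG00000030772, chromosome 7, 112116017 to 112159057, minus strand), a secreted glycoprotein of the Dickkopf family, read 395, 402, 425 and 401 with vehicle, 254, 265, 263 and 244 with myoglobin, and 271, 245, 238 and 206 with both agents. There was a wide gap between vehicle and every treated library. Dkk3 fell by 0.66 ± 0.068 with myoglobin (adjusted p = 4.91e-06). Sfrp1 (ENSMUSG00000031548, chromosome 8, 23411502 to 23449632, plus strand), which binds Wnt proteins outside the cell, read 389, 362, 380 and 371, then 308, 291, 270 and 253, and 288, 276, 279 and 269 with both agents. Again no treated library reached vehicle, and the change with myoglobin was -0.42 ± 0.058 (adjusted p = 8.38e-05). Dkk2 (7 to 14 in vehicle), Sfrp2 (6 to 15) and Sfrp5 (9 to 19) were near the filter's minimum and did not pass.

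In bulk RNA, fewer cells of a type and less RNA per cell cannot be told apart, and the marker sums moved too. The summed value of the 14 distal nephron markers was 5502 to 6527 with vehicle, 4368 to 4756 with myoglobin and 5470 to 5986 with both agents. With myoglobin 9 of the 14 fell and 2 rose (78.6% called, against 18.3% of all genes tested). With both agents 10 of the 14 were still lower than vehicle and 3 higher (median -0.78). That is 92.9% called, against 28.6% of all genes tested. The larger sum went with Calb1 (a mean of 1373 with vehicle and 2106 with both agents) and Scnn1a (130 and 461). The sum of the 13 fibroblast and stromal markers was 435 to 510, 328 to 376 and 198 to 306. Its largest part was Rgs5, with means of 267.2, 171.5 and 127.0 in the same order. Of the 9 tested markers in this list, 2 (Rgs5 and Pdgfra) fell and 1 (Cspg4) rose with myoglobin (33.3% called, against 18.3% of all genes tested). Podocyte and parietal markers (9) summed to 1734 to 1931, 1670 to 1854 and 1835 to 1912. The part of these changes in the falls of Wnt11, Wnt9b, Wnt5a, Fzd8, Dkk3 and Sfrp1 was not tested.

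**Figure D2:**
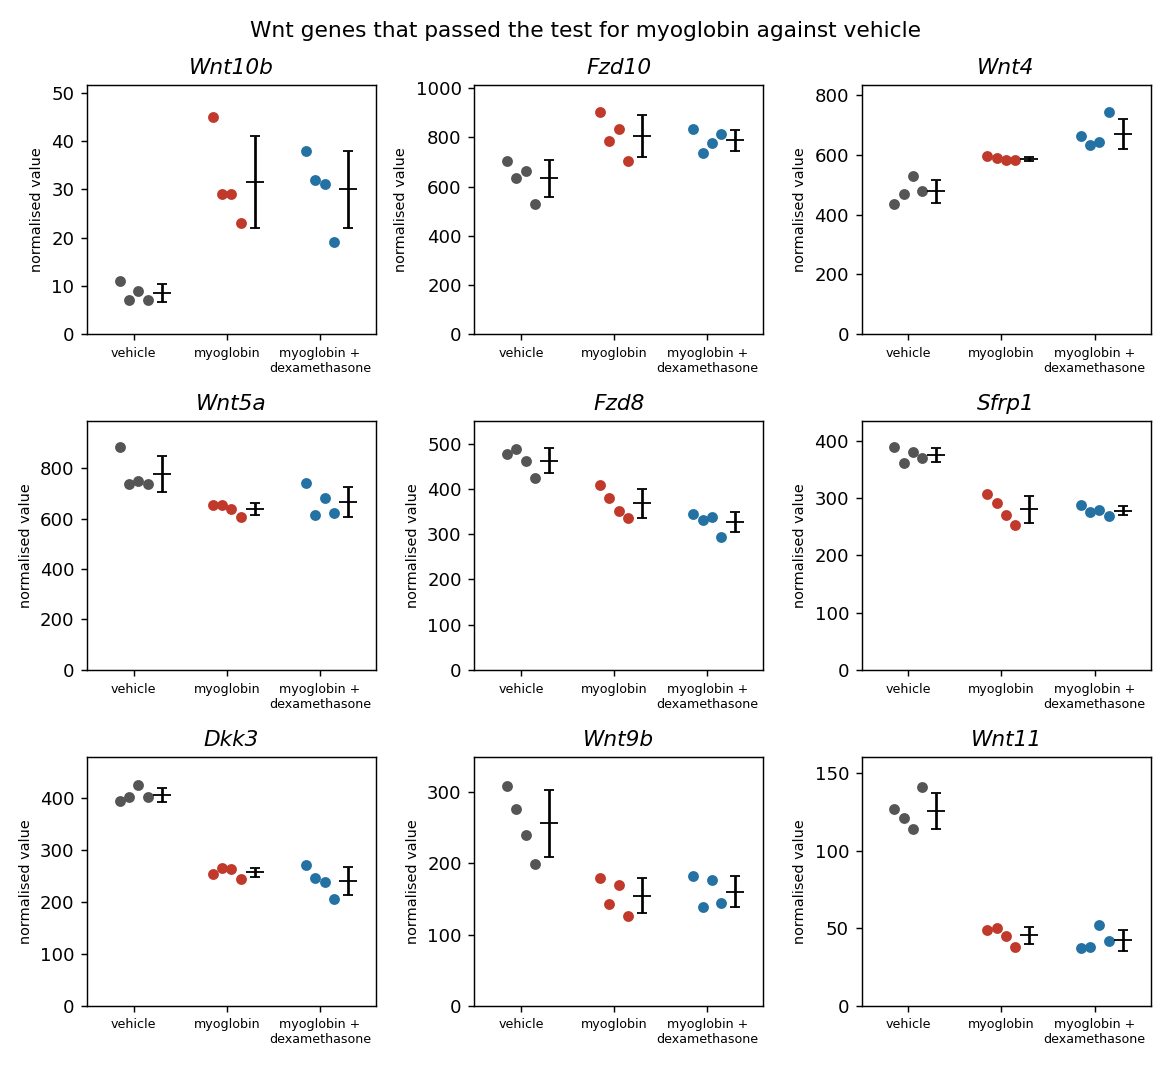
Normalised value (y axis, from 0) in each library of the 9 genes that passed with myoglobin against vehicle; points are libraries, and the bar beside them is the mean ± SD of 4 libraries. Wnt10b, Fzd10 and Wnt4 are higher with myoglobin, and Wnt5a, Fzd8, Sfrp1, Dkk3, Wnt9b and Wnt11 are lower.

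The coreceptors and feedback genes, which carry and report the canonical signal, were called in 0 of 7 cases with myoglobin. Of all genes tested, 18.3% were called. With only 7 genes, a count of 0 cannot show that the canonical signal was unchanged. With limma at an unadjusted p below 0.05, 2 of these 7 were lower, Lgr5 and Znrf3. Axin2 read 897, 831, 849 and 788 with vehicle, 875, 741, 813 and 724 with myoglobin, and 811, 737, 782 and 781 with both agents. The groups overlapped, and myoglobin gave -0.10 ± 0.058 (adjusted p = 0.293). Both agents against vehicle gave -0.11 ± 0.058 for Axin2 (limma, adjusted p = 0.162). That change passed in 2 alternatives, quantile normalization and the replicate block. Lgr5, an R-spondin receptor and itself a target of the pathway, read 589, 497, 520 and 464, then 473, 429, 478 and 426, and 455, 412, 433 and 383 with both agents. Most treated libraries were below vehicle, but the change with myoglobin, -0.19 ± 0.071, did not pass (adjusted p = 0.0758), though it did in 4 alternatives.

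Rnf43 and Znrf3 are ubiquitin ligases that remove Frizzled receptors from the cell surface. Rnf43 read 946, 886, 887 and 842 with vehicle, 919, 821, 876 and 839 with myoglobin, and 931, 848, 854 and 913 with both agents. No separation of groups is seen, and its change was -0.04 ± 0.048 (adjusted p = 0.601). Znrf3 read 884, 834, 856 and 819, then 802, 790, 757 and 742, and 810, 758, 818 and 716 with both agents. The myoglobin libraries were all below vehicle, yet the change of -0.13 ± 0.047 had an adjusted p of 0.0612, and it passed in 5 alternatives. Lrp5 (1556 to 1627 with vehicle, 1511 to 1652 with myoglobin), Lrp6 (2109 to 2370 and 2132 to 2277) and Lgr4 (707 to 802 and 709 to 757) overlapped.

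**Figure D3:**
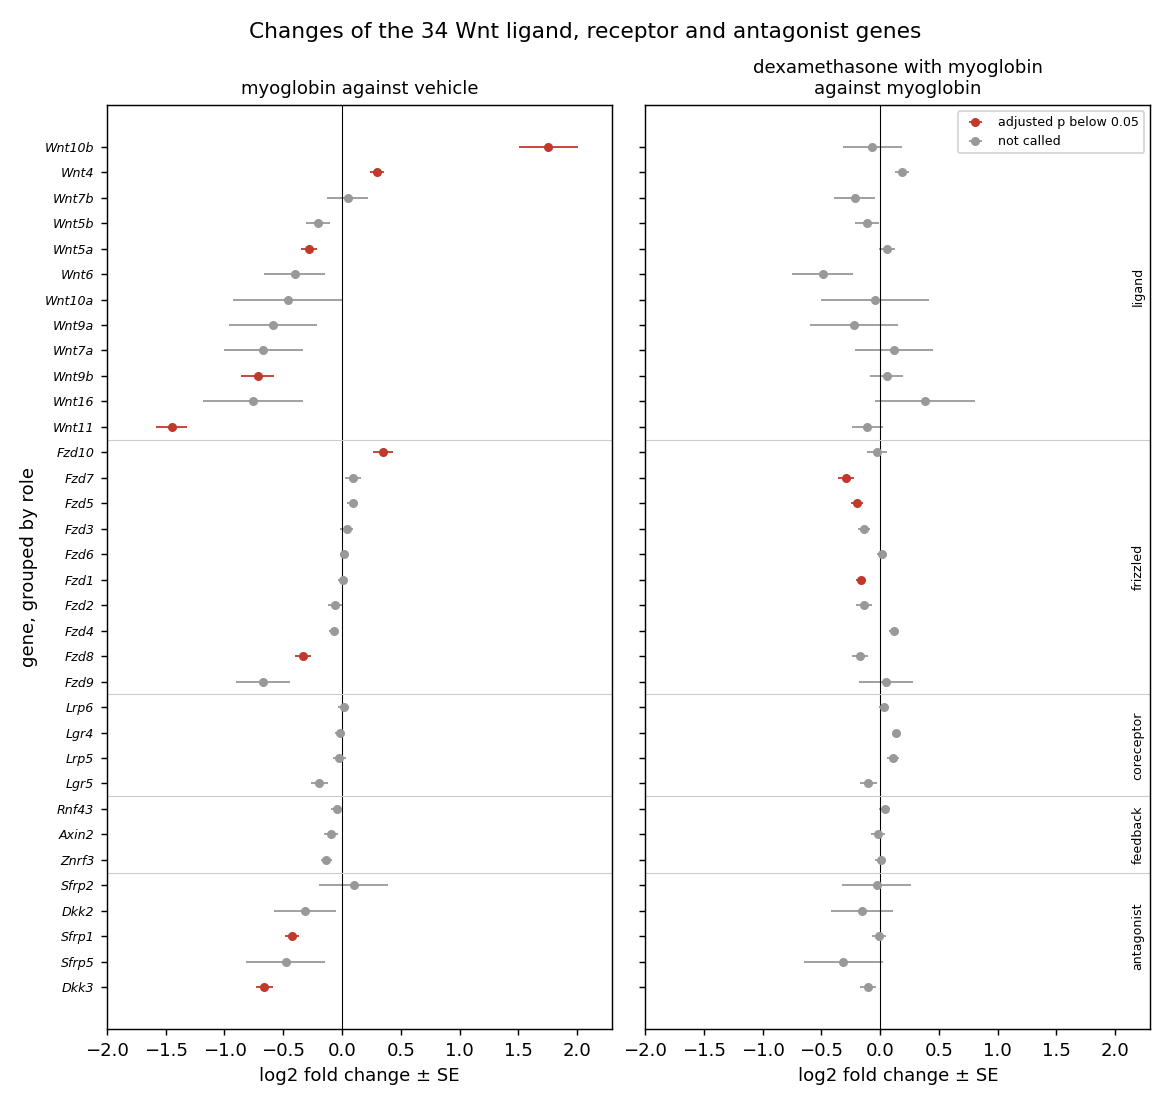
Log2 fold change ± SE (x axis) of each of the 34 genes, grouped by role, for myoglobin against vehicle on the left and for dexamethasone with myoglobin against myoglobin on the right; red points passed at an adjusted p below 0.05. On the left, 9 genes passed, from Wnt10b at 1.75 to Wnt11 at -1.45; on the right, Fzd1, Fzd5 and Fzd7 passed, all lower.

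The next comparison asks what dexamethasone changed when added to myoglobin. It shares the myoglobin group with the comparison above. All genes called among the 34 were Frizzled receptors: Fzd7, Fzd5 and Fzd1 fell. Of all genes tested, 6.98% passed, 3.08% as higher and 3.9% as lower. Of the 34 genes 3 (8.82%) were lower and 0 higher. At an unadjusted limma p below 0.05, 5 were lower and 3 higher. Library weights called 1 as higher, and the median change was -0.04 against 0.01 for all genes.

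Fzd7 (ENSMUSG00000041075, chromosome 1, 59482424 to 59486955, plus strand), a receptor of many canonical ligands, read 311, 340, 349 and 368 with vehicle, 356, 377, 358 and 369 with myoglobin, and 323, 316, 302 and 257 with both agents. All dexamethasone libraries were below all myoglobin libraries, and replicate 4 was the lowest. Fzd7 fell by 0.29 ± 0.069 (adjusted p = 0.0191). Fzd5 (ENSMUSG00000045005, chromosome 1, 64730558 to 64737751, minus strand) read 380, 375, 373 and 416, then 412, 410, 417 and 404, and 364, 366, 374 and 331 with both agents. Its myoglobin libraries were close together and above every dexamethasone library, and the change was -0.20 ± 0.049 (adjusted p = 0.0251). Fzd1 (ENSMUSG00000044674, chromosome 5, 4753839 to 4758035, minus strand) read 616, 646, 657 and 626, then 644, 638, 625 and 645, and 570, 547, 556 and 609 with both agents. Here too the libraries of the compared groups were apart, and the change was -0.16 ± 0.041 (adjusted p = 0.0252).

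These calls were close to the threshold, and leaving out 1 library often lost them. Fzd7 no longer passed without myoglobin replicate 2 or 4, and Fzd5 without any 1 of the 4 myoglobin libraries. Fzd1 was lost without myoglobin replicate 1, 2 or 4 or without replicate 1, 2 or 3 of both agents. It was also lost with only the compared groups in the fit. The changes stayed negative in all 23 alternatives, at -0.33 to -0.22 for Fzd7, -0.225 to -0.16 for Fzd5 and -0.19 to -0.14 for Fzd1. The highest adjusted p in any alternative was 0.0642 for Fzd7, 0.0692 for Fzd5 and 0.0772 for Fzd1.

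The other Frizzled receptors did not pass. Fzd4, a receptor that also binds the non-Wnt ligand norrin, read 955, 999, 974 and 966 with myoglobin and 1012, 1043, 1057 and 1117 with both agents. Its libraries were apart, with a change of 0.12 ± 0.042 (adjusted p = 0.111). Lgr4, an R-spondin receptor, read 757, 740, 746 and 709 with myoglobin and 833, 813, 786 and 818 with both agents, again apart (0.14 ± 0.042, adjusted p = 0.061). Wnt4 gave 0.19 ± 0.058 (adjusted p = 0.0694). The genes that myoglobin had moved most stayed near their myoglobin values, with -0.07 ± 0.25 for Wnt10b and -0.11 ± 0.13 for Wnt11. For Axin2 the change was -0.02 ± 0.058.

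The last comparison sets both agents against vehicle, and it shares a group with each of the others. The ligands Wnt10b and Wnt4, the receptor Fzd10 and the R-spondin receptor Lgr4 rose. The ligands Wnt11, Wnt9b, Wnt6, Wnt5b and Wnt5a, the receptors Fzd8, Fzd2, Fzd7 and Fzd1, the antagonists Dkk3 and Sfrp1, and Lgr5 and Znrf3 fell. Of all genes tested, 28.6% passed, 13.9% as higher and 14.6% as lower. Among the 34 genes, 4 (11.8%) were higher and 13 (38.2%) lower, 50.0% in all, and the median change was -0.20 against 0.00 for all genes. Without vehicle replicate 2 the number lower was 8. With library totals as the scaling, 3 of the 34 were higher and 14 lower, and over all genes the calls were 1555 higher and 2661 lower, in place of 2029 and 2132.

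Side by side, Wnt11 changed by -1.56 ± 0.13 against vehicle with both agents and -1.45 with myoglobin alone, and Wnt10b by 1.69 ± 0.25 and 1.75. Wnt4 was at 0.49 ± 0.058 with both agents and 0.30 with myoglobin alone. Fzd8 was at -0.50 ± 0.068 and -0.33. These pairs share the vehicle libraries, and the difference within each pair is the dexamethasone comparison above, in which none of these 4 genes passed. Lgr5, which did not pass with myoglobin alone, fell by 0.30 ± 0.071 with both agents (adjusted p = 0.00606). Wnt6 read 16, 17, 12 and 14 with vehicle, 13, 11, 8 and 12 with myoglobin, and 12, 6, 6 and 7 with both agents. Replicate 1 with both agents was level with the lowest vehicle library, and the change was -0.89 ± 0.26 (adjusted p = 0.0187), lost without vehicle replicate 2 and with quantile normalization (adjusted p up to 0.0785).

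Of the 17 genes called, 10 passed in all 23 alternatives and 7 were lost in at least 1. Wnt5b read 171, 184, 143 and 161 with vehicle, 172, 145, 132 and 124 with myoglobin, and 131, 141, 128 and 127 with both agents, a change of -0.32 ± 0.10 (adjusted p = 0.0295). Fzd2 read 261, 289, 283 and 267, then 280, 277, 264 and 237, and 230, 234, 264 and 232 with both agents, a change of -0.20 ± 0.065 (adjusted p = 0.035). The dexamethasone libraries of Fzd2 were below vehicle except replicate 3, and those of Wnt5b were all below the lowest vehicle library. Lgr4 (0.12 ± 0.042, adjusted p = 0.0486), Znrf3 (-0.13 ± 0.047, adjusted p = 0.0495) and Fzd7 (-0.19 ± 0.069, adjusted p = 0.0465) lay just inside the threshold. Fzd2 was lost in 5 alternatives, Wnt5a in 3, Wnt5b in 7, Wnt6 in 2, Fzd7 in 12, Znrf3 in 14 and Lgr4 in 15.

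Replicate 4 of both agents, the library with the fewest reads, deviated from the mean of the other 3 libraries of its group by 0.25 on the log2 scale for Lrp5. Its deviations were larger for Wnt10a (1.00), Wnt9a (0.76) and Wnt7b (0.56), but for these genes number 4 was the highest library in the other treatments too. They were also larger in size for Wnt10b (-0.79), Wnt16 (0.58), Dkk2 (0.33), Fzd7 (-0.29) and Dkk3 (-0.28). For Fzd7, number 4 was the highest vehicle library (368) and the lowest with both agents (257). Without this library, 0 of the 34 genes were higher and 3 lower for dexamethasone against myoglobin (limma, 3 and 4 at an unadjusted p below 0.05). Against vehicle, both agents then gave 4 higher and 9 lower.

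Libraries of the same number resembled each other in some ligands, a pattern noticed after the values were seen. Wnt10a read 15, 42, 50 and 59 with vehicle, 12, 28, 35 and 42 with myoglobin, and 11, 28, 32 and 44 with both agents. In each treatment the library numbered 1 was the lowest and the library numbered 4 the highest, with a ratio of 4 to 1 of 3.93, 3.50 and 4.00. Wnt9a (9, 21, 20 and 34; 8, 10, 15 and 19; 7, 13, 8 and 16) and Wnt7b (267, 375, 355 and 429; 268, 390, 380 and 438; 229, 318, 311 and 419) shared this order. For Wnt7a, with 29, 50, 49 and 76, then 15, 30, 30 and 59, and 25, 36, 36 and 35, number 1 was the lowest throughout.

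In all, number 1 alone was lowest in every treatment for 4 of the 34 genes (11.8%), against 7.6% of all genes tested. It was alone highest for 8 (23.5%), against 6.15% of all genes: Sfrp1, Lgr4, Axin2, Rnf43, Fzd10, Wnt10b, Wnt5a and Wnt9b. Among podocyte and parietal markers number 1 was lowest for 4 of 9, with Ptpro at 17, 39, 50 and 57 with vehicle. It was lowest for 2 of 9 tubular epithelial markers and for 0 of 13 fibroblast markers. Any part of a difference in cell makeup in this pattern was not tested.

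**Figure D4:**
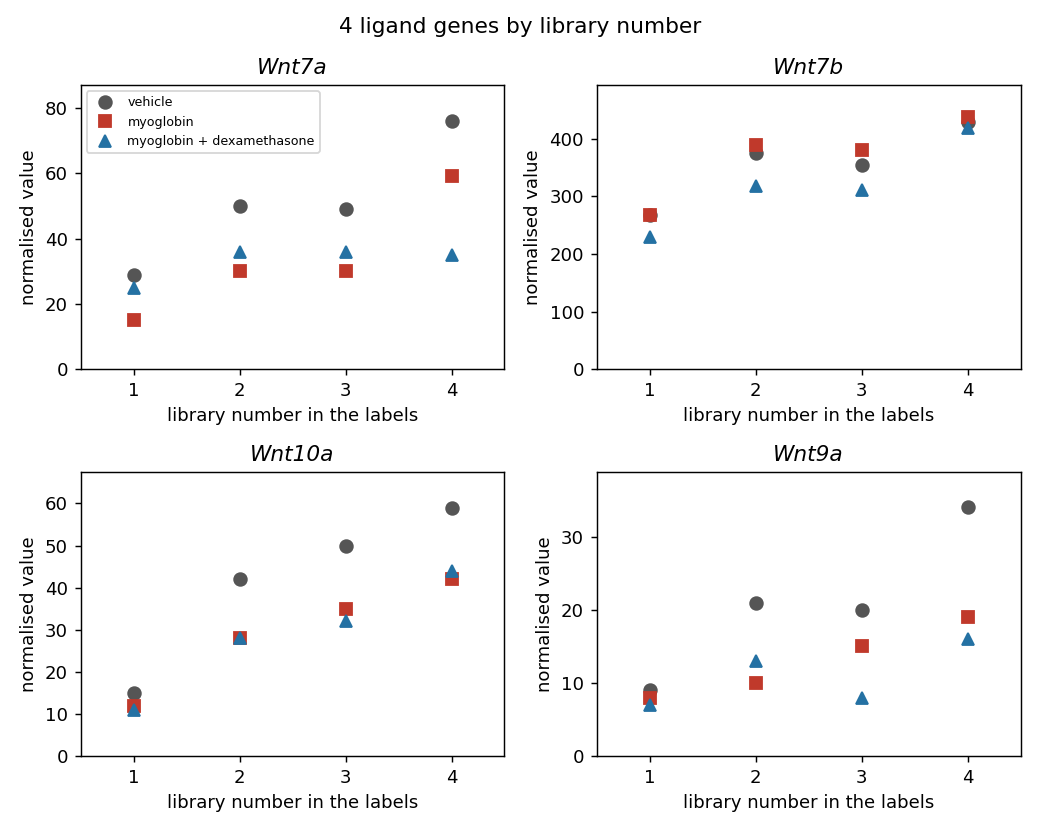
Normalised value (y axis, from 0) of 4 ligand genes against the library number given in the labels (x axis), with symbols for the 3 treatments; the number has no order of its own. The library numbered 1 is the lowest of each treatment in all 4 genes, for example 15, 12 and 11 for Wnt10a.

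The rest of the pathway was read from 7 lists chosen for their role, with 88 tested genes. With myoglobin 5 of them rose and 20 fell (28.4% called, against 18.3% of all genes tested). With dexamethasone added 3 rose and 3 fell (6.82%), near the share of all genes, 6.98%. Of the other secreted inhibitors 4 were tested, and 1 was higher and 1 lower with myoglobin (50% called, against 18.3% of all genes tested). Wif1, which binds Wnt proteins, rose. It read 140, 120, 116 and 92 with vehicle, 334, 281, 281 and 255 with myoglobin, and 365, 235, 284 and 243 with both agents. Every treated library was above every vehicle library, with 1.30 ± 0.14 for myoglobin (adjusted p = 6.31e-06). Sostdc1, an inhibitor of Wnt and BMP signals, fell with myoglobin (-0.26 ± 0.061) and rose when dexamethasone was added (0.30 ± 0.061, adjusted p = 0.00696).

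Genes that act on the ligands themselves (4 tested) gave 2 higher and 1 lower with myoglobin (75% called, against 18.3% of all genes tested). Notum, a secreted enzyme that removes the lipid of Wnt proteins, read 153, 142, 160 and 130 with vehicle and 247, 226, 191 and 193 with myoglobin, a rise of 0.54 ± 0.096 (adjusted p = 0.000784). Porcn, the enzyme that adds that lipid, rose by 0.37 ± 0.072, and Trabd2b, a protease that cleaves Wnt proteins, fell (-0.37 ± 0.089). Of 10 other receptors, 0 rose and 2 fell with myoglobin (0 and 2 at an unadjusted p below 0.05), Ptk7 (-0.20 ± 0.046) and Adgra2 (-0.86 ± 0.23). That is 20% called, near the 18.3% of all genes tested. With dexamethasone Ror1, a Wnt5a receptor, fell by 0.31 ± 0.075 (adjusted p = 0.0231), from 433, 379, 369 and 377 to 361, 290, 324 and 288.

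In the planar polarity list (15 tested), 5 genes fell and 0 rose with myoglobin (33.3% called, against 18.3% of all genes tested). They were Celsr2 (-0.57 ± 0.045), an atypical cadherin, Prickle1 (-0.50 ± 0.092), Prickle2 (-0.56 ± 0.17), Daam1 (-0.20 ± 0.038) and Daam2 (-1.08 ± 0.20), the last 2 being formins. At an unadjusted p below 0.05, 8 were lower and 2 higher. The polarity receptor component Vangl2 fell with dexamethasone (-0.20 ± 0.054, adjusted p = 0.0329). The median of the list was -0.19 with myoglobin, against 0.00 for all genes tested.

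In the cytoplasmic core (22 tested) Dvl1, a scaffold downstream of Frizzled, rose by 0.18 ± 0.051 with myoglobin, and Frat1 (-0.78 ± 0.20) and Frat2 (-0.56 ± 0.18), which bind GSK3, fell. That is 13.6% called, below the 18.3% of all genes tested. Among 16 nuclear genes the beta-catenin partner Bcl9 rose (0.21 ± 0.044). The corepressors Tle2 (-0.92 ± 0.065) and Tle3 (-0.26 ± 0.039) and the DNA-binding factors Tcf7l1 (-0.27 ± 0.062) and Tcf7l2 (-0.24 ± 0.059) fell. These 5 nuclear calls make 31.2%, against 18.3% of all genes tested. Dexamethasone called 0 genes in the core and nuclear lists with limma, against 6.98% of all genes tested. At an unadjusted limma p below 0.05 there were 3 higher and 3 lower.

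Of 17 target genes, 5 fell and 0 rose with myoglobin, namely Jun (-0.42 ± 0.043), Ephb3 (-0.49 ± 0.074), Bambi (-0.44 ± 0.097), Efnb1 (-0.22 ± 0.056) and Nkd1 (-0.37 ± 0.11). Of these targets 29.4% were called, against 18.3% of all genes tested. At an unadjusted p below 0.05, 7 were lower and 1 higher. These genes also answer to other signals. With dexamethasone Mmp7 (0.38 ± 0.10) and Sox9 (0.22 ± 0.059) rose and Nkd2, an inhibitor that acts on Dishevelled, fell (-0.64 ± 0.16). Sox9 and Mmp7 read 1550 and 890 in replicate 4 of both agents, the highest of their groups.

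With both agents against vehicle, 9 of the 88 genes rose and 27 fell (40.9% called, against 28.6% of all genes tested, 13.9% higher and 14.6% lower). Besides Wif1 (1.25 ± 0.14), Porcn (0.51 ± 0.072) and Notum (0.71 ± 0.096), Lrp4, a receptor that binds the inhibitor sclerostin, rose by 0.31 ± 0.078. Dvl1 (0.25 ± 0.051), Fbxw11 (0.14 ± 0.044), which marks beta-catenin for degradation, Bcl9 (0.24 ± 0.044) and Mmp7 (0.47 ± 0.10) were also higher. Falls were called for the receptors Ror1 (-0.31 ± 0.075), Ror2 (-1.002 ± 0.21) and Adgra2 (-1.41 ± 0.23), the inhibitor Apcdd1 (-0.995 ± 0.24) and Trabd2b (-0.28 ± 0.089). In the cytoplasmic core Frat2 (-0.84 ± 0.18), Apc2 (-0.54 ± 0.16) and Amer1 (-0.16 ± 0.059) fell. Tle2 (-0.69 ± 0.065), Tle3 (-0.23 ± 0.039) and the DNA-binding factor Lef1 (-0.46 ± 0.12) were the nuclear genes with the smallest p among the falls. For the polarity list these were Celsr2 (-0.72 ± 0.045), Daam2 (-1.67 ± 0.20), Prickle1 (-0.67 ± 0.092) and Daam1 (-0.23 ± 0.038). Jun (-0.53 ± 0.043), Ephb3 (-0.66 ± 0.074) and Nkd2 (-1.06 ± 0.16) led the falling targets.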

How the data were processed

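Per the submitters' processing notes, the build was mm10 and the tools were DESeq2 1.36.0, featureCounts 2.0.3, Picard 2.27.4, STAR 2.7.10a and Trimmomatic 0.39, with no role stated. The deposited values are read here as a normalised score: reads per gene divided by a library factor and rounded by the authors, since every library lacks or repeats whole numbers at regular steps of its own. They are not counts, so limma 3.58.1 (R 4.3.3) was used on log2(value + 1), with the 3 groups as terms and 12 libraries in 1 fit. The test took genes that reached 10 in 4 or more libraries. Two-sided p-values were adjusted by Benjamini-Hochberg over all genes tested in a comparison, with a call at an adjusted p below 0.05. Only called genes are said to have risen or fallen. Changes are log2 fold changes ± SE and levels are means ± SD.

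Coordinates are those of the table, and GENCODE M21, the source of exonic lengths, places all 34 genes alike. Promoters came from RefSeq. Tables and plots used matplotlib 3.10.9, scipy 1.17.1, pandas 2.3.3, numpy 2.4.6 and Python 3.11.15. The fit was tested on simulated data.

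The members and lists were chosen with earlier results of these data known. All 34 genes are named, those called in any comparison and Axin2, Lgr5, Rnf43 and Znrf3 with every library. Of each pathway list up to 4 called genes with the smallest p are named, or all where 5 or fewer were called. Alternatives were pseudocounts of 0.5 and 10, no filter and a minimum of 30, 3 other scalings, library weights, only the groups compared, a replicate block, no mean-variance trend, and each library left out. The precision is limited by 4 libraries per group and the reads per library.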

Additional observations from a re-analysis of the deposited data

Results flagged for a closer look

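Of the 102 sets of 4 libraries (34 genes in 3 groups), 7 had 1 library far from its group, by Dixon's 95% limit on the gap to the nearest library. Chance gives about 1 in 20 such sets. Lrp5 was 1933 in replicate 4 of myoglobin with dexamethasone, against 1613 to 1629 in the others. Lrp6 was 2370 in vehicle replicate 1, against 2109 to 2140. Wnt5a was 884 in the same library, against 736 to 748. Fzd5 was 416 in vehicle replicate 4, against 373 to 380. Fzd2 was 264 in replicate 3 of both agents, against 230 to 234. In replicate 1 of both agents Wnt6 was 12, against 6 to 7, and Wnt7a was 25, against 35 to 36.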

How the results depend on the processing

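For myoglobin against vehicle, the 9 calls among the 34 genes passed in all 23 alternatives, and 0 called changes reversed in any comparison. The labels do not tie a replicate number to a mouse, so the main fit had no replicate block. Same-number correlations ran from -0.02 to 0.46, with 9 of 12 over 0.1, where each of the 12 is a pair of same-numbered libraries from 2 groups. In 10 of 12 pairs no other number correlated better. Whether equal numbers are pairs cannot be settled from the labels. With a replicate block the genes lower were 11 for myoglobin against vehicle and 6 for dexamethasone against myoglobin, 2 were higher in the latter (the calls gained were Lgr5, Znrf3, Wnt7a, Wnt10a and Fzd9, all lower with myoglobin, and with dexamethasone Fzd8, Wnt7b and Fzd3, lower, and Lgr4 and Wnt4, higher), and 1788 genes of all were called there in place of 1016. Library weights called 4314 genes in place of 2669 for myoglobin and 1625 for dexamethasone, with 1 of the 34 higher in the latter. With only the compared groups in the fit, dexamethasone called 639 genes. Leaving out 1 library gave 549 to 1279 genes for dexamethasone against myoglobin, with 0 to 1 of the 34 higher and 0 to 3 lower. The 0 lower came without myoglobin replicate 2 or 4 (limma, 4 and 6 lower at an unadjusted p below 0.05), and 1 lower came without myoglobin replicate 1. Without 1 library both agents against vehicle gave 8 to 12 lower, 8 without vehicle replicate 2. Upper-quartile scaling gave 1590 genes higher and 2602 lower for both agents against vehicle. The causes of these shifts were not tested. Among values of single genes, 2137 were unchanged in call and direction, 71 lost the call, 45 gained it and 72 without a call changed sign. Low depth limits genes under about 30, such as Wnt6, Wnt16, Dkk2, Sfrp2 and Sfrp5.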
